A study of Drosophila melanogaster with 4 samples.

Results

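3LHet is the sequence of Release 5 of the Drosophila melanogaster genome that holds the part of the heterochromatin around the centromere placed on the left arm of chromosome 3. Its H1-enriched regions were taken by the sequence name given in each list of regions, with no use of scores. They numbered 33 of 3779 in ChIP replicate 1, 98 of 4665 in ChIP replicate 2 and 323 of 18812 in 1 combined table that the submitters made for the replicates as a set. The sequence is 2.56 Mb long.

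The lists come from chromatin immunoprecipitation and sequencing (ChIP-seq) with an antibody to histone H1 in third-instar larvae of the wild-type strain Oregon-R (Oregon-R-modENCODE). The study held 2 H1 ChIP samples and 2 input samples of the same strain and stage. The input libraries were not analysed here. The labels name neither a tissue nor separate cultures, so a region cannot be tied to a cell type and the spread between the replicates may be technical.

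H1 is the linker histone, which binds the nucleosome where DNA enters and leaves it and helps to compact the chromatin fibre. Heterochromatin near centromeres is rich in satellite repeats and remnants of transposable elements, carries few genes, and is packaged with methylated lysine 9 of histone H3 and the protein HP1. In Drosophila, H1 is known to be needed for the normal structure of this heterochromatin and for the silencing of transposable elements. Genes, repeats and base sequence of the regions were not analysed here, because no genome of Release 5 was used. The regions are therefore given by position, length and score. The score is the authors' own value and behaved as a log2 ratio, so that the median score of 0.62 in replicate 1 is a ratio of 1.54. It describes and ranks regions within a list. Scores of different lists are scaled separately, so where they stand side by side they are values and no difference is drawn.

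H1 regions covered a small and unequal share of 3LHet in the replicates. They covered 54.0 kb, or 2.11%, in replicate 1 and 175 kb, or 6.86%, in replicate 2, with a mean of 4.48 ± 3.35% (SD, n = 2). The combined table covered 570 kb, or 22.3%. Replicate 2 thus had 2.97 times the regions and 3.25 times the covered length of replicate 1.

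The same measure differed less between the replicates on the autosomal arms 2L, 2R, 3L and 3R, the large and mostly gene-rich parts of the genome. There 5.87% was covered in replicate 1 and 7.05% in replicate 2, a factor of 1.20, and on 3L, the arm that 3LHet belongs to, the factor was 1.27. It was larger on the placed heterochromatin of the right arms, 7.77 on 2RHet and 5.44 on 3RHet, where replicate 1 held 16 and 13 regions.

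Set against the autosomal arms, the covered share of 3LHet was 0.360 times theirs in replicate 1 and 0.972 times in replicate 2. For the combined table this ratio was 0.675. The replicate mean was 0.666 ± 0.433 (SD, n = 2), and it was 0.461 ± 0.447 for 2LHet, 2RHet and 3RHet together. In each list 3LHet was covered to a larger share than 2RHet, 3RHet or 2LHet. Replicate 1 alone put 3LHet far below the arms, and replicate 2 alone put it beside them. When only the higher-scoring regions entered (from the median of a list upwards), the mean was 1.08, from 0.530 in replicate 1 and 1.62 in replicate 2. Scores were higher on 3LHet than on the arms, so a cut at the median of the whole list kept a larger part of its regions. With 2 replicates no exact permutation test can go below 0.05, so sequences and replicates were not tested against each other. Shares are of whole sequence length, with no correction for sequence where reads cannot be placed.

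**Figure D1:**
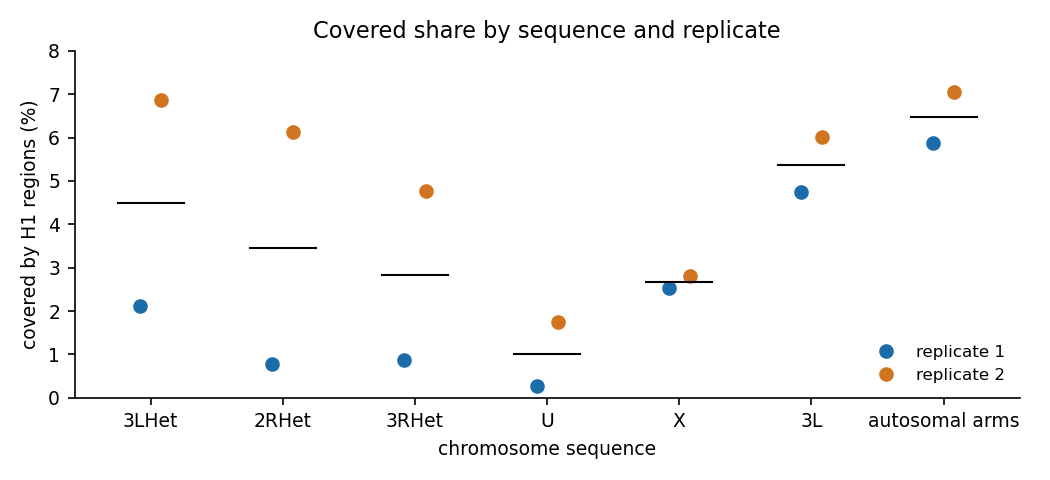
Share of each chromosome sequence covered by H1 regions (%), by sequence. Points are the replicates and the black line is their mean; 3LHet stood at 2.11% and 6.86%, against 5.87% and 7.05% for the autosomal arms together.

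Regions of 3LHet were of about the length seen on the autosomal arms but had higher scores. In replicate 1, replicate 2 and the combined table their median lengths were 1482, 1580.5 and 1525 bp, against 1553, 1586.5 and 1669 bp on the autosomal arms. The median score was 0.62, 0.67 and 0.47, against 0.53, 0.57 and 0.38 on the arms, or ratios of 1.54, 1.59 and 1.39, against 1.44, 1.48 and 1.30. The lower quartile lay higher as well, at 0.54, 0.60 and 0.41 on 3LHet, against 0.48, 0.52 and 0.35 on the arms. Other heterochromatic and unplaced sequence had high scores too: the medians of 2LHet, 2RHet and 3RHet together were 0.60, 0.72 and 0.50, and those of the unplaced sequence U 0.65, 0.79 and 0.64. High scores were not limited to such sequence, as the medians of the X chromosome were 0.62, 0.65 and 0.44.

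The scores were also more spread out than on the arms. The distance between the lower and upper quartile was 0.15, 0.20 and 0.16 on 3LHet, against 0.09, 0.10 and 0.06 on the arms. On the other placed heterochromatin, which here means 2LHet, 2RHet and 3RHet without XHet and YHet, it was 0.33, 0.23 and 0.16. Among the highest 10.0% of scores of each list, taken over all sequences, stood 15 of the 33 regions of replicate 1, or 45.5%, 40 of the 98 of replicate 2, or 40.8%, and 144 of the 323 combined regions, or 44.6%. On the arms these shares were 5.65%, 3.95% and 3.61%, and on the X chromosome 41.4%, 23.3% and 19.6%. The other placed heterochromatin gave 43.8%, 53.8% and 57.7%, so a high share did not set 3LHet apart from these sequences together. Within them, 2LHet had 0 of its 3 regions there in replicate 1, but 55.6% and 67.7% in the other lists. Read depth is unknown, so no counting error can be given for a score.

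**Figure D2:**
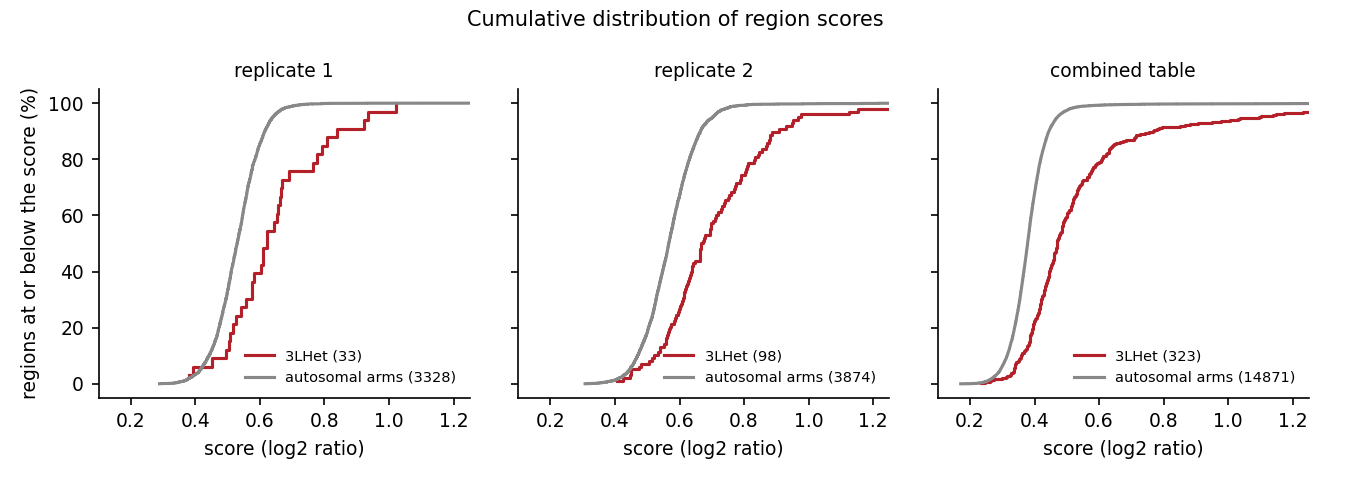
Cumulative share of regions (%) at or below each score (log2 ratio) in replicate 1, replicate 2 and the combined table, for 3LHet and for the autosomal arms, with the number of regions in brackets. The 3LHet curve lies to the right of that of the arms over most of its range in all 3 panels; the few highest scores lie beyond the axis.

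The highest scores on 3LHet came from different places in the replicates. In replicate 1 the highest was 3LHet:1095721-1097580, with a score of 1.02, a ratio of 2.03 and rank 11 in its list. It was followed by 3LHet:1172158-1173761 with 0.94 and 3LHet:388470-390875 with 0.92. The next were 3LHet:198148-199455 with 0.84 and 3LHet:191607-193039 with 0.81, neighbours in a stretch where replicate 2 has no region. Of these 5, only the first overlapped replicate 2.

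In replicate 2 the highest score was at 3LHet:970088-971668, with 1.52, a ratio of 2.86 and rank 19 in its list. Next came 3LHet:65251-66905 with 1.41, 3LHet:1491632-1493159 with 1.15 and 3LHet:842819-844598 with 1.12. The fifth was 3LHet:1289643-1291444 with 0.98. None of these 5 overlapped replicate 1, and the first 3 lay 94148, 58239 and 119413 bp from its nearest region, while the fifth lay 579 bp from it.

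The combined table had its highest scores in short regions that neither replicate list held. The highest was 3LHet:896716-897802, 1087 bp long, with a score of 3.39, a ratio of 10.5 and rank 2 of all combined regions. It was followed by 3LHet:2529798-2530798 with 2.93, 3LHet:2049610-2051488 with 2.83, 3LHet:798978-800078 with 1.70 and 3LHet:55102-56148 with 1.43. Each of these 5 scores was shared exactly with at least 1 other region of the list. Lower scores were tied as well, as a score of 0.34 occurred 95 times in the list. Read counts were not given, so how many reads these high scores rest on is not known. Of the 21 combined regions of 3LHet with a score of at least 1, 1 overlapped a replicate region, and their median length was 1087 bp. Of these 21, 14 shared their score with another region. The arms were alike in overlap: their highest combined score was 3.10 in neither replicate. It was 0.83 for regions that overlapped replicate 1 and 0.89 for those that overlapped replicate 2.

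Length and score were at most weakly related, and in the combined table the sign on 3LHet differed from that on the arms. Spearman's rho between them was -0.22 over the 323 regions of 3LHet, against 0.19 over the 14871 of the arms. In replicate 1 it was -0.02 over 33 regions, against 0.32 on the arms, and in replicate 2 0.07 over 98, against 0.36. These are correlations across regions of the same libraries, which are not replicates, and no test was made.

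**Figure D3:**
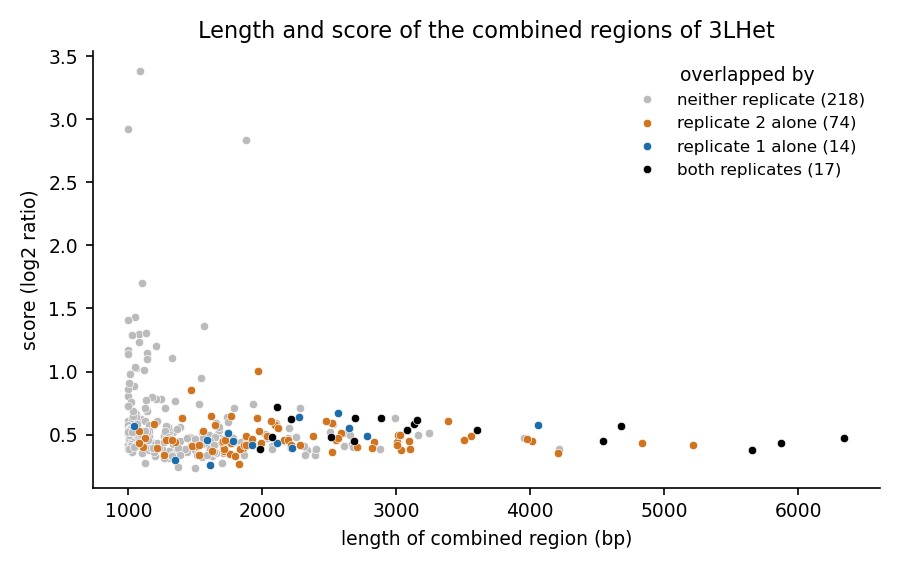
Score (log2 ratio) against length (bp) of the 323 combined regions of 3LHet, coloured by the replicate lists that overlap them. Regions in both replicates (17, black) are at least 1981 bp long with scores from 0.38 to 0.72, while the highest scores belong to short regions in neither replicate (grey).

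Most combined regions of 3LHet had no counterpart in either replicate. Overlap means at least 1 shared bp. Of the 323, 17 overlapped both replicates, or 5.26% (95% Wilson interval 3.31 to 8.27%, which counts regions only), 74 overlapped replicate 2 alone, 14 replicate 1 alone and 218, or 67.5%, neither. Over all sequences the shares were 6.71% for both and 65.7% for neither, so 3LHet was close to the background in these respects.

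What separated the classes was length. The 17 regions in both replicates had a median length of 3077 bp and the shortest measured 1981 bp, against a median of 1277 bp for the regions in neither. Over all sequences these medians were 4099 and 1355 bp, so the split by length was not particular to 3LHet. Of the 81 longest combined regions, from 2075 to 6341 bp, 55 overlapped a replicate region, against 5 of the 81 shortest, from 1001 to 1135 bp. The shortest replicate region of 3LHet measured 1301 bp, and 114 of the 218 regions in neither replicate were shorter than that. Whether the lists called regions of that length by the same limits is unknown, and longer regions meet others more often by their length alone.

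From the replicates' side, most regions had a combined counterpart, but some with high scores did not. The combined table overlapped 31 of 33 regions of replicate 1 and 92 of 98 of replicate 2, or 93.9% of each, against 98.6% and 97.9% over all sequences. The region of replicate 1 at 3LHet:198148-199455, rank 25 of its list, had none, and neither did the region of replicate 2 at 3LHet:1601138-1602532, with a score of 0.80. The other 6 without a counterpart scored from 0.43 to 0.77.

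The replicates met each other unevenly, because their lists differ in size. Of the 33 regions of replicate 1, 16 overlapped replicate 2, or 48.5% (32.5 to 64.8%), against 31.5% over all sequences. Of the 98 regions of replicate 2, 17 overlapped replicate 1, or 17.3% (11.1 to 26.0%), against 25.3% over all sequences. These intervals count regions of 1 library and hold no spread between replicates, so they do not test 3LHet against all sequences. Each share also depends on how dense the other list is. Of all bases of 3LHet under a region of any replicate, 8.18% were under regions of both, compared with 10.9% on the autosomal arms and 4.74% on the other placed heterochromatin. Independent placement at the same coverage would give 1.64% on 3LHet, 3.38% on the arms and 0.737% on the other placed heterochromatin. The shares found were 4.98, 3.24 and 6.44 times these. On the unplaced sequence U, covered to 0.280% and 1.74% in the replicates, the share was 3.25% and the factor 13.4. Independent placement was reckoned over whole sequences, also where reads cannot be placed. The factors therefore do not rank the sequences by how well the replicates agree. With regions of at least 1500 bp alone, the share of bases under both on 3LHet was 4.43%.

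Regions of replicate 1 that missed replicate 2 lay about as near to it as on the arms. Of the 17 without overlap, 8, or 47.1%, lay less than 5 kb from a region of replicate 2, against 49.1% on the arms and 68.4% on the other placed heterochromatin, and the median distance was 5705 bp. The 81 regions of replicate 2 without overlap lay at a median of 25438 bp from replicate 1, which has fewer regions to be near to. On the arms these medians were 5165.5 and 5755.5 bp.

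**Figure D4:**
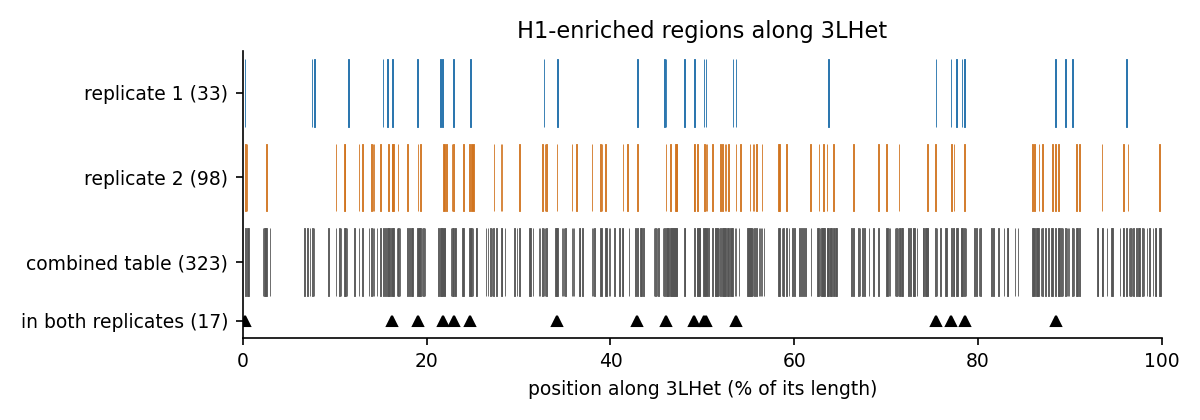
H1-enriched regions along 3LHet, as percent of its length, in replicate 1 (33), replicate 2 (98) and the combined table (323); triangles mark the 17 combined regions that overlap both replicates. Some triangles stand in groups of neighbours and others alone, with long stretches between them that hold none.

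By combined score, the first of the 17 sites in both replicates was 3LHet:1095566-1097674, 2109 bp long with a score of 0.72. Replicate 1 covered 88.2% of it with a score of 1.02 (rank 11) and replicate 2 covered 77.1% with a score of 0.87 (rank 110). The replicate 2 region lay wholly inside that of replicate 1. It is the highest-scoring region of replicate 1 on 3LHet, whereas the highest of replicate 2 is at none of the 17.

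At a further group of sites the region of 1 replicate lay largely or wholly within that of the other. At 3LHet:584262-586952 the replicate regions shared 1848 bp, with scores of 0.69 in replicate 1 and 0.81 in replicate 2. At 3LHet:5530-7742, near the start of the sequence, the region of replicate 1 scored 0.78 and lay inside that of replicate 2, which scored 0.75. The sites at 3LHet:2005504-2008656 and 3LHet:1175442-1178570 likewise had the replicate 1 region inside that of replicate 2.

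At 3LHet:2005504-2008656 replicate 1 scored 0.60 (rank 699) and replicate 2 scored 0.89 (rank 97), the highest score of replicate 2 at any of the 17 sites. At 3LHet:1175442-1178570 the scores were 0.66 (rank 235) and 0.77 (rank 234).

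Weaker sites of the same kind were 3LHet:1370180-1372688, with scores of 0.54 in each replicate, and 3LHet:2259382-2261362, with 0.51 in replicate 1 and 0.56 in replicate 2. At 3LHet:1968934-1971008 the scores were 0.51 and 0.60, and at 3LHet:1286262-1289338 they were 0.64 and 0.62. At 3LHet:412716-417390 replicate 1 had 1 region with 0.61 and replicate 2 had 2, the higher with 0.73. In all, 10 of the 17 overlapping pairs of replicate regions shared at least 50% of both regions.

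At the remaining sites the replicates marked neighbouring rather than equal stretches. At 3LHet:1925530-1928418 both scored 0.79, and shared 741 bp, or 36.4% of the region of replicate 1 and 37.0% of that of replicate 2. At 3LHet:628756-633294, 3LHet:483732-489602 and 3LHet:1279836-1285488 they shared 455, 573 and 632 bp. At 3LHet:1254074-1256758 the region of replicate 1 bridged 2 regions of replicate 2 and shared 163 and 691 bp with them. These regions are joined in the combined table into longer ones, of 2685 to 5871 bp.

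A pair of sites hardly met. At 3LHet:872806-876410 the replicate regions shared 54 bp, with scores of 0.62 in replicate 1 and 0.83 in replicate 2. At 3LHet:554546-560886, the longest combined region of 3LHet at 6341 bp, they shared no base: that of replicate 1 ended 100 bp before that of replicate 2 began. The count of 17 thus includes 1 region whose support in the replicates lies side by side.

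Sites ranked high in 1 replicate tended to be ranked high in the other. Across the 17 combined sites, Spearman's rho between the highest scores of the replicates was 0.74. The sites share their libraries and were not treated as replicates, so no test was made.

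Along 3LHet the regions were spread over the whole sequence, with a denser middle in replicate 2 and the combined table. Cut into 3 equal parts from its start, the sequence held 13, 11 and 9 regions of replicate 1 and 34, 43 and 21 of replicate 2. The combined table held 88, 126 and 109, and of the 17 sites in both replicates 6, 7 and 4 lay there. The covered share in the combined table was 20.0%, 26.4% and 20.5%. Both replicates had their fewest regions in the last part, and the combined table had its fewest in the first.

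In windows of 100 kb the replicates were high in partly the same places. Over the 25 full windows coverage ran from 0 to 6.49% in replicate 1, with a median of 1.86%, and from 0 to 16.4% in replicate 2, with a median of 5.84%. It ran from 8.17 to 37.2% in the combined table, with a median of 20.7%. Replicate 2 was above replicate 1 in 23 of the 25, so its higher coverage was not the work of a few windows.

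Spearman's rho across these windows was 0.42 between the replicates, 0.48 between replicate 1 and the combined table and 0.71 between replicate 2 and the combined table. Windows share the libraries and any sequence where reads cannot be placed, and neighbours are not independent. The combined table is no independent measurement beside the replicates.

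**Figure D5:**
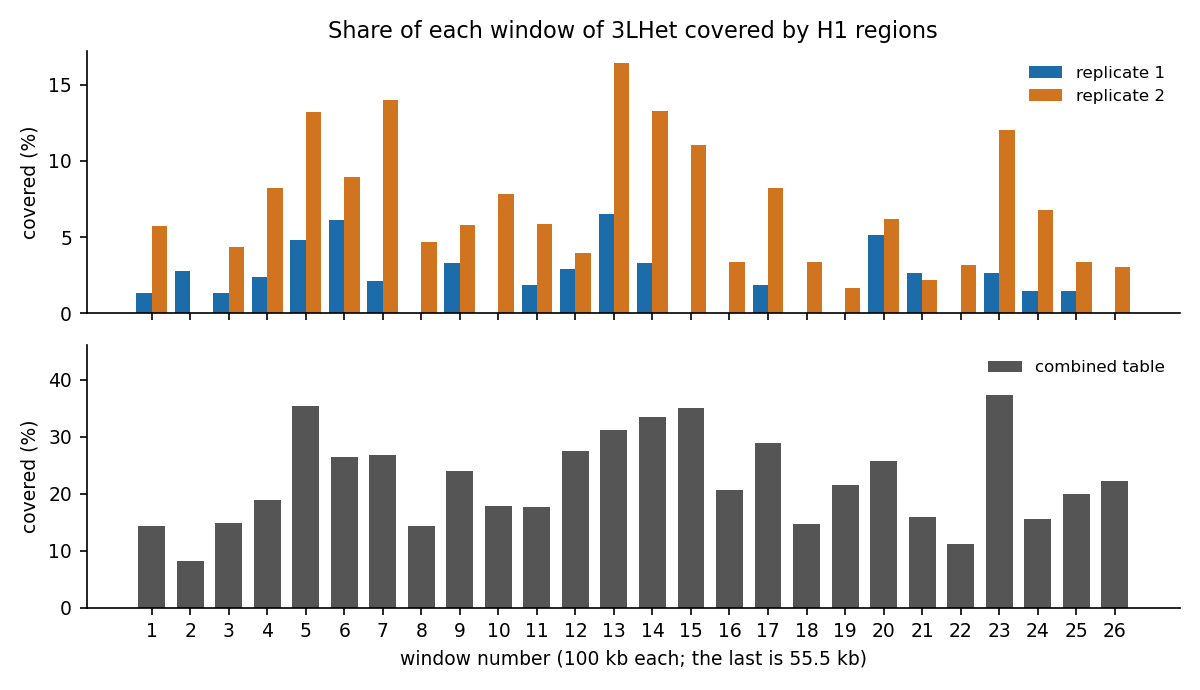
Share (%) of each window of 3LHet covered by H1 regions, in both replicates (upper panel) and in the combined table (lower panel, other scale), by window number from the start of the sequence. Window 13 is the highest in each replicate, with 6.49% and 16.4%, and window 23 the highest in the combined table, with 37.2%.

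The densest window of both replicates was the same, 3LHet:1200001-1300000. It was covered to 6.49% by replicate 1, to 16.4% by replicate 2 and to 31.1% by the combined regions, and held 3 of the 17 sites in both replicates. Most of this lay in 38.3 kb at 3LHet:1253178-1291444, where replicate 1 had 3 regions and replicate 2 had 6. That stretch was covered to 12.7%, 29.1% and 57.1%.

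Its 3 regions of replicate 1 all overlapped replicate 2, and they scored 0.58, 0.45 and 0.64. Those of replicate 2 scored from 0.48 to 0.98, the highest at 3LHet:1289643-1291444, which replicate 1 did not overlap. Beside it, still in the same window, replicate 2 had 3 regions at 3LHet:1202065-1208569 with scores from 0.66 to 0.93, all at least 18859 bp from any region of replicate 1.

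After this window the replicates ranked the others differently. In replicate 1 the next were 3LHet:500001-600000 with 6.13% and 3LHet:1900001-2000000 with 5.15%, which replicate 2 covered to 8.95% and 6.21%. In replicate 2 the next were 3LHet:600001-700000 with 14.0% and 3LHet:1300001-1400000 with 13.3%, which replicate 1 covered to 2.12% and 3.30%. The window 3LHet:1400001-1500000 was covered to 11.0% in replicate 2 and 35.0% in the combined table, with no region in replicate 1.

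The coverage of 3LHet:600001-700000 rested largely on 1 region. The region of replicate 2 at 3LHet:633643-641373, 7731 bp long with a score of 0.68, is the longest of all 4665 regions of that replicate. The combined table split it between 2 regions, of which 3LHet:633580-638410 measured 4831 bp and was covered to 98.7%. The nearest region of replicate 1, at 3LHet:631071-633185, ended 457 bp before it. Replicate 1 had no region of 3000 bp or more on 3LHet, where its longest measured 2962 bp, and replicate 2 had 5.

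Among the 5 longest combined regions of 3LHet, 3 were in both replicates, those of 6341, 5871 and 5653 bp at 3LHet:554546-560886, 3LHet:483732-489602 and 3LHet:1279836-1285488. The rest, at 3LHet:993696-998908 and 3LHet:633580-638410, overlapped replicate 2 alone. All 5 had modest scores, from 0.38 to 0.47. No combined region of 3LHet reached the 22953 bp of the longest on the autosomal arms.

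Neighbouring regions were spaced more evenly than on the arms in replicate 1, replicate 2 and the combined table. In the same order of lists, the median distance between neighbours was 38.2, 14.2 and 3.11 kb, against 10.5, 7.81 and 1.39 kb on the arms. The spread of these distances, as SD over mean, was 1.15, 1.31 and 1.50 on 3LHet, against 1.61, 1.90 and 2.12 on the arms. On the other placed heterochromatin it was 1.03, 1.31 and 1.82. Spacing on 3LHet was still uneven, with an SD larger than the mean in each list. The arms values pool distances from 2L, 2R, 3L and 3R. Close neighbours were fewer: 0%, 7.22% and 25.2% of neighbours lay less than 1 kb apart, against 8.09%, 10.7% and 41.7% on the arms, whose regions are also denser.

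Clusters were defined as runs of regions less than 10 kb apart. The mean distance between neighbours was 6140 bp in the combined table, below this limit. It was 24430 bp in replicate 2 and 74950 bp in replicate 1, above the limit. Cluster counts therefore depend on how dense a list is. Whether they differ from those of randomly spaced regions was not tested. The combined table fell into 60 clusters that together spanned 51.9% of 3LHet, of which 10 were single regions and 25 had at least 5 regions. These 25 held 240 regions, or 74.3%. Replicate 2 also gave 60 clusters, but 36 were single regions and the largest had 5. Replicate 1 gave 27, of which 21 were single regions and none had more than 2.

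The largest cluster by covered length was 3LHet:2194910-2327732, with 26 combined regions in 133 kb, 3 regions of replicate 1 and 9 of replicate 2. It held 1 site in both replicates. The next were 3LHet:1305832-1380460 with 19 regions in 74.6 kb and 3LHet:350128-437168 with 17 in 87.0 kb, each with 1 such site.

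The rest of the 5 largest had none. The densest of the 5 was 3LHet:1401980-1450276, covered to 60.3% by 14 combined regions, with 5 regions of replicate 2 and none of replicate 1. The cluster at 3LHet:1595436-1652276 was covered to 51.0% by 17 regions, with 1 region of replicate 1 and 4 of replicate 2. The 5 clusters held 30.8% of the covered length of the combined table.

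Between the clusters lay long stretches with no region. The longest without a region of any list was 3LHet:75117-170939, of 95.8 kb, and the next 3LHet:2327733-2376371, of 48.6 kb. The third longest gap of the combined table, 3LHet:197827-237179, of 39.4 kb, did hold a region of replicate 1, with a score of 0.84. Whether reads can be placed in these stretches is not known from the lists.

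Stretches free of both replicates were longer and often not free of combined regions. The longest, 3LHet:2007705-2194860, ran for 187 kb and held 13 combined regions. The next, 3LHet:66906-191606, of 125 kb, contained the longest empty stretch and held 4 combined regions outside it. Replicate 1 alone had gaps of 297, 256 and 253 kb, at 3LHet:1629930-1926832, 3LHet:1372219-1628087 and 3LHet:2007105-2259831, in which replicate 2 had 7, 13 and 5 regions. Replicate 2 was without regions for 191 kb at 3LHet:66906-258121, where replicate 1 had 2, both among the 50 highest scores of its list.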

How the data were processed

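H1 ChIP-seq regions of 2 ChIP samples and 1 combined table were used; the 2 input samples were not analysed here. The deposited lists give start, end and a score per region, and positions are on FlyBase Release 5 per the file headers. The submitters' processing notes name Bowtie 0.12.7, with no role. How regions were called and filtered, how the input was used, the depth and the way of combining replicates were not given in the sources used here. The deposited scores were treated as log2 ratios: taken as powers of 2 and divided by 1 constant per list, 99.1 to 100.0% of them matched a fraction of integers with a denominator of at most 5000, within a relative 1e-11.

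Regions were taken by sequence name and compared by overlap of at least 1 bp, tested on simulated data. Windows of 100 kb started at position 1, and a region was counted in the window, part, cluster or gap that holds its midpoint. Sequence groups were compared as values with no test. Intervals given with shares are 95% Wilson intervals, which count regions and hold no spread between replicates. The regions named are all combined regions in both replicates, the 5 highest and 5 longest combined regions, the 5 highest of each replicate, the 5 largest clusters and the 3 longest gaps; replicate regions that had no combined counterpart or filled the densest window, and the longest of replicate 2, were named after their values were seen. The members and settings were chosen with earlier results of these data known. Alternatives were higher scores, at least 1500 bp, joining, other overlap, cluster and window limits, and leaving out each replicate. Tools were matplotlib 3.10.9, scipy 1.17.1, pandas 2.3.3, numpy 2.4.6 and Python 3.11.15.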

Additional observations from a re-analysis of the deposited data

How the results depend on the processing

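A count was taken to move where it changed by over 1.5 times, a replicate mean where it changed by over 1 SD, and the overlap by length where it left a Wilson interval over the sites. Of 26 alternative values, 6 moved by these rules, all of them counts. A mean with 1 of 2 replicates left out could not move, because that change is always below 1 SD. The interval for the overlap counts sites, while the overlap itself counts bases. The number of values that did not move is therefore no measure of stability. The overlap by length, the covered share and its ratio to the arms changed by over 1.5 times under some settings as well, within their wide spread. The 17 combined regions in both replicates became 11 with the higher-scoring regions alone (from the list's median upwards) and 6 with regions of at least 1500 bp. With 1 replicate left out, combined regions that overlapped the other numbered 31 without replicate 2 and 91 without replicate 1. Joining regions less than 1000 bp apart left the count at 17. So did asking that at least 50% of a replicate region lie within the combined region. That limit does not ask the replicates to share bases with each other, and the combined table was made for these same replicates. The unchanged count therefore says nothing on how well the replicates agree. The 60 clusters became 112 with a limit of 5 kb and 22 with 20 kb, as the limit itself implies. The covered share of 3LHet was 2.11% without replicate 2 and 6.86% without replicate 1. Its ratio to the autosomal arms was 0.360 without replicate 2 and 0.972 without replicate 1. These 4 values stay within 1 SD by arithmetic, however far apart the replicates lie. With regions of at least 1500 bp the covered share was 2.86%, within the wide SD of 3.35% around the mean of 4.48%. The ratio was 1.08 with the higher-scoring regions and 0.623 with at least 1500 bp. The score cut was the median of the whole list, and scores were higher on 3LHet than on the arms. That cut therefore kept a larger part of the regions of 3LHet. The cause of the change with length was not tested. The share covered in both of what either replicate covered was 7.26% and 4.43% under these settings, against 8.18%. The densest 10% of windows held 28.9% of the covered length in the replicate mean, from 24.9 to 32.9% over single replicates, and 31.9% with windows of 50 kb. No paired analysis was possible because the input samples, which carry the same replicate numbers, were not analysed here. Without read depth, differences in region number between lists cannot be set against sampling.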
